A study of Sus scrofa with 29 samples.

Results

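Transcripts of 5 genes tied to red blood cells were followed in scrapings of the arterial lining of exercise-trained and sedentary pigs: HBB, HBM, AHSP and ALAS2, which belong to haemoglobin production, and EPOR, the receptor for erythropoietin. They were chosen by symbol, as every probe set that the array platform's annotation gives to one of these 5 symbols. This gave 8 probe sets (1 each for HBB, HBM, AHSP and ALAS2, and 4 for EPOR) of the 24123 on the array, and 5 of its 6765 named genes. All 8 were tested, with no filter on low values.

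Healthy pigs gave scrapes of 2 vessels, the brachial artery, which supplies the foreleg, and the internal mammary artery, which runs inside the chest wall. Exercised pigs trained on a treadmill for 16 to 20 weeks, with bouts of 85 min at full load, and were sampled about 24 h after the last bout; sedentary pigs stayed in their enclosures. The 4 groups were 7 brachial arteries of exercised pigs, 7 brachial arteries of sedentary pigs, 8 internal mammary arteries of exercised pigs and 7 internal mammary arteries of sedentary pigs. The 29 arrays came from 15 pigs, so replicates were separate animals, and 14 pigs gave both arteries. The labels name no strain, genotype or age. The lumen was rinsed with saline when the artery was taken and was scraped after a short exposure to a lysis reagent, which yields a sample enriched in endothelial cells but not pure. The endothelial markers PECAM1 and CDH5 averaged 13.97 and 12.39 on the log2 scale over the arrays, and the smooth muscle marker ACTA2 averaged 13.76. Since probes differ in brightness, these levels do not give the share of each cell type.

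Red blood cells carry oxygen on haemoglobin, a tetramer of alpha-like and beta-like globin chains that each hold a heme group. Young red cells, the reticulocytes, have lost their nucleus but still carry messenger RNA for globins and for heme synthesis, so these transcripts are commonly read as blood in a tissue sample. Erythropoietin, a kidney hormone, keeps red cell precursors alive through its receptor, and EPOR is also transcribed in endothelial cells.

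Values are log2 intensities of a probe set as the authors deposited them, and ± gives the SD over arrays of a group or, for a difference, the standard error of the limma fit. Precision is limited by the number of arrays, which have no read depth. Array medians lay between 7.13 and 7.28, and correlations between arrays between 0.965 and 0.995. Levels of different probe sets are not set against each other, since probes differ in brightness. In a bulk sample, fewer cells of a type and less RNA per cell cannot be told apart.

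ALAS2, AHSP and HBM were among the most variable transcripts on the array, and they varied from scrape to scrape rather than with training. ALAS2, the erythroid form of the first enzyme of heme synthesis, ranged from 6.19 to 12.63 over the 29 arrays, an 86.9-fold range of intensity. AHSP, a chaperone that holds free alpha-globin until it pairs, ranged from 4.68 to 10.62 (61.4-fold), and HBM, an alpha-like globin called mu, from 6.29 to 10.24 (15.5-fold). The SD within groups was 1.53 for ALAS2, 1.35 for AHSP and 0.900 for HBM, larger than those of 99.9%, 99.8% and 99.1% of the 24029 probe sets tested. The median over all probe sets was 0.186.

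HBB did not behave like the other haemoglobin transcripts. This probe set, annotated to the beta chain of adult haemoglobin, ranged only from 9.28 to 10.52 (2.37-fold), and its SD within groups of 0.186 was that of a typical probe set. The data therefore go against its use as a sign of red cells here, and it is described by its symbol alone. Globin genes form a family of similar sequences, and how far a globin probe set takes signal from its relatives was not tested.

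ALAS2 had 12.63 in the internal mammary artery of exercised pig 10_1, then 9.82 in pig 14_3, 9.63 in pig 12_2, 9.29 in pig 12_5, 7.96 in pig 15_2, 7.40 in pig 11_3, 7.24 in pig 10_5 and 6.41 in pig 15_4. In internal mammary arteries of sedentary pigs it had 11.25 in pig 15_1, 9.45 in pig 17_1, 9.29 in pig 12_3, 7.99 in pig 11_1, 6.67 in pig 13_2, 6.64 in pig 10_2 and 6.19 in pig 11_4. Both groups thus held high and low scrapes over nearly the same span, and they overlapped almost entirely. The brachial arteries were more even: ALAS2 had a lowest value of 6.69, a median of 7.68 and a highest of 9.77 in exercised pigs, against 6.91, 7.83 and 9.25 in sedentary pigs. The highest brachial values came from exercised pig 10_1 and sedentary pig 11_1, each standing above the other 6 of its group.

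AHSP and HBM picked out the same scrapes. AHSP was highest in the internal mammary artery of exercised pig 10_1 (10.62), then in that of sedentary pig 15_1 (8.30). HBM was highest in the same 2 arrays (10.24 and 8.81). In brachial arteries both were highest in exercised pig 10_1 (7.63 for AHSP and 8.05 for HBM) and next in sedentary pig 11_1 (7.19 and 7.68). HBB was lowest of all arrays in the brachial artery of pig 10_1 (9.28), where the other 3 were at their brachial peak, and it was highest in the internal mammary artery of sedentary pig 11_1 (10.52).

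**Figure D1:**
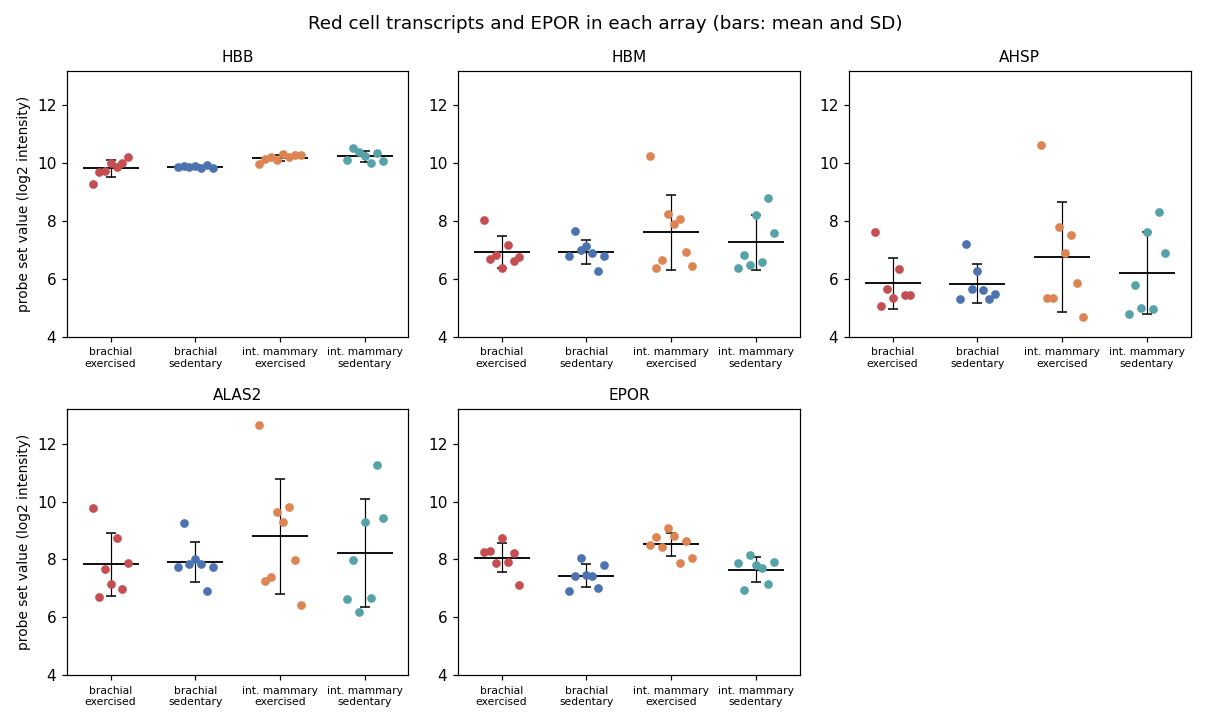
Log2 intensity of the HBB, HBM, AHSP, ALAS2 and EPOR (main) probe sets in each array, by artery and training, all on an axis of the same span; points are pigs, and bars are the group mean and SD. HBM, AHSP and ALAS2 are widely spread, most of all in internal mammary arteries, while HBB stays between 9.28 and 10.52 and EPOR lies higher in both exercised groups.

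Across pigs, HBM, AHSP and ALAS2 moved together in both arteries. In the 15 internal mammary arrays, Pearson's r was 0.992 between HBM and AHSP, 0.979 between AHSP and ALAS2 and 0.970 between HBM and ALAS2, with Spearman's rho of 0.954, 0.946 and 0.914. In the 14 brachial arrays r was 0.942 for HBM with AHSP, 0.935 for AHSP with ALAS2 and 0.937 for HBM with ALAS2, with rho of 0.912, 0.881 and 0.890. For all 6 relations the permutation p of r, adjusted by Benjamini-Hochberg over 37 relations among members, was at most 7.4e-05, and that of rho at most 0.000336.

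These relations did not rest on the extreme scrapes. Without the 2 arrays farthest from the median, r stayed between 0.943 and 0.981 in internal mammary arteries (without pigs 10_1 and 15_1) and between 0.775 and 0.816 in brachial arteries (without pigs 10_1 and 11_1). Among the pigs collected first r ran from 0.963 to 0.996, and among those collected last from 0.832 to 0.997.

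HBB showed no such relation. Its r with HBM, AHSP and ALAS2 was -0.634, -0.551 and -0.479 in brachial arteries (rho -0.468, -0.266 and -0.112), with adjusted permutation p of 0.0519, 0.0938 and 0.151. Without pigs 10_1 and 15_4 the same r values were -0.220, 0.0999 and -0.0217, so the negative values rested on those 2 pigs. In internal mammary arteries r lay between -0.264 and -0.208, with adjusted permutation p of 0.437 to 0.561.

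**Figure D2:**
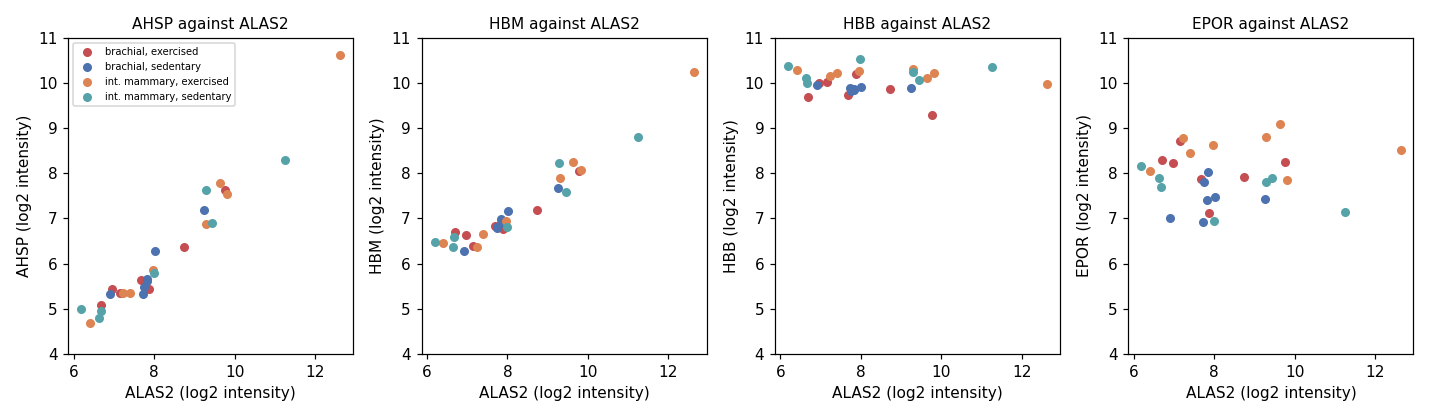
AHSP, HBM, HBB and EPOR (log2 intensity, vertical axes) against ALAS2 (log2 intensity, horizontal axis), with 1 point for each of the 29 arrays and colour for artery and training. AHSP and HBM climb with ALAS2 to the array of pig 10_1 at 12.63, while HBB and EPOR show no slope with it.

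A pig with much red cell transcript in one artery did not reliably have it in the other. ALAS2 of the 2 arteries had r = 0.349 over the 14 pigs with both (rho 0.147, permutation p of r 0.223, adjusted 0.329), and -0.0668 without pigs 10_1 and 11_1. HBM had r = 0.374 and AHSP r = 0.588, with adjusted permutation p of 0.279 and 0.0593. The difference of ALAS2, brachial minus internal mammary, ran from -4.34 in sedentary pig 15_1 to 1.65, with 8 of 14 pigs lower in the brachial artery.

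The r of ALAS2 between arteries had opposite signs in the collection periods. Among the 7 pigs collected first with both arteries it was 0.722 (permutation p 0.0655, unadjusted). Among the 7 collected last it was -0.187 (0.699). The difference between periods was not tested.

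HBB, by contrast, differed with the artery. It averaged 9.83 ± 0.30 in brachial and 10.19 ± 0.111 in internal mammary arteries of exercised pigs (SD, n = 7 and 8). In sedentary pigs it averaged 9.88 ± 0.0431 in brachial and 10.24 ± 0.192 in internal mammary arteries (n = 7 each), and there the groups did not overlap, as for 7.05% of all probe sets. HBB was lower in the brachial artery in 14 of 14 pigs, by differences of -0.69 to -0.07. Between the arteries of these pigs HBB had r = 0.551 and rho 0.666 (adjusted permutation p 0.0754 and 0.0246). Without pigs 10_1 and 15_4 this r was 0.379. The average difference, brachial minus internal mammary, was -0.36 ± 0.06 in limma (adjusted p = 5.97e-06).

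That call is read against a very common one: 54.3% of all probe sets differed between the arteries at an adjusted p under 0.05, with 31.8% higher and 22.5% lower in the brachial artery. The differences of ALAS2 (-0.62 ± 0.46), AHSP (-0.62 ± 0.40) and HBM (-0.48 ± 0.27) did not pass, with limma adjusted p of 0.268, 0.196 and 0.138. Without pig 15_1 these 3 values were -0.28, -0.40 and -0.30.

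**Figure D3:**
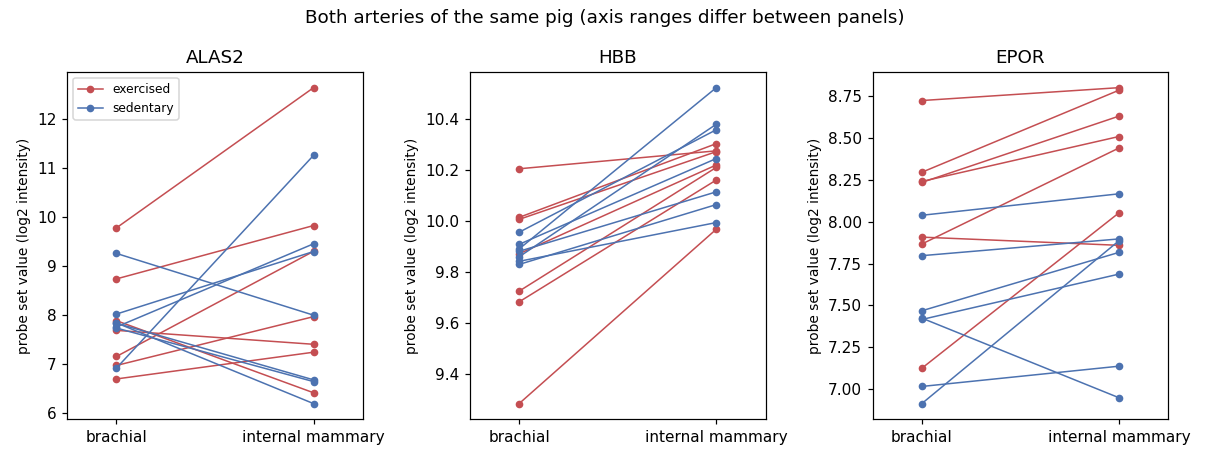
ALAS2, HBB and EPOR (log2 intensity, axis ranges differ between panels) in the brachial and the internal mammary artery, with a line joining the arteries of each of 14 pigs and colour for training. All 14 HBB lines slope the same way, the ALAS2 lines cross, and the EPOR lines slope towards the internal mammary artery in 12 of 14 pigs.

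Training did not separate the groups for any of the 4 haemoglobin-related transcripts. By limma none of the 4 passed in the brachial artery, where 1.63% of all probe sets did, or in the internal mammary artery, where 0.67% did, and none had an unadjusted p under 0.05 in either. ALAS2 differed by -0.03 ± 0.77 in brachial and 0.59 ± 0.74 in internal mammary arteries (exercised minus sedentary, limma adjusted p = 0.990 and 0.820). In the same order of arteries AHSP differed by 0.04 ± 0.66 and 0.56 ± 0.64, HBM by 0.02 ± 0.45 and 0.34 ± 0.44, and HBB by -0.06 ± 0.10 and -0.05 ± 0.09, with limma adjusted p between 0.796 and 0.991.

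The positive values in the internal mammary artery rested on pig 10_1. Without this pig the difference was 0.04 for ALAS2, 0.01 for AHSP and -0.03 for HBM. Without sedentary pig 15_1 it was 1.09 for ALAS2, still short of the threshold (limma adjusted p = 0.607). Among the pigs collected first the ALAS2 difference was 1.70, and among those collected last it was -0.75. Over the average of both arteries, where 4.69% of all probe sets passed, none of the 4 did, with adjusted p from 0.762 to 0.860.

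Of 57 other genes listed for red cell development, membrane or heme synthesis, 23 were measured. By limma none rose or fell with training in either artery (3 in brachial and 5 in internal mammary arteries had an unadjusted p under 0.05, as did 15.4% and 12.3% of all probe sets), with a median change of 0.11 in brachial and 0.05 in internal mammary arteries, against 0.01 for all probe sets in each. In the internal mammary artery the smallest p belonged to ALAD, the second enzyme of heme synthesis (0.31 ± 0.10, limma adjusted p = 0.170), BNIP3L, a mitophagy receptor that clears mitochondria from maturing red cells (0.18 ± 0.07, 0.198), PPOX, a late enzyme of heme synthesis (0.29 ± 0.11, 0.241), and BPGM, which makes the haemoglobin effector bisphosphoglycerate (0.24 ± 0.10, 0.305). Between arteries 5 of the 23 were higher and 4 lower in the brachial artery, against 31.8% and 22.5% of all probe sets. The median was 0.06, against 0.03 for all probe sets. SELENBP1, a selenium-binding protein, was lower (-0.97 ± 0.16, limma adjusted p = 1.37e-05), and DMTN, the membrane skeleton protein dematin, was higher (0.58 ± 0.10, 3.09e-05).

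Few other transcripts on the array followed the red cell profile. The profile was the mean of HBB, HBM, AHSP and ALAS2 after subtracting group means, and r was taken over the 29 arrays as a description, since pigs contribute 2 arrays each and the arrays share the authors' normalization. Only 17 other probe sets reached r = 0.7, of which 13 had 1 symbol and 4 had none. The 6 most alike genes were ARG1 (r = 0.982), LOC100738720 (0.860), EPB41 (0.845), STRADB (0.839), B2M (0.823) and HBE1 (0.819). The same 6 genes came out, with r of 0.818 to 0.979, when HBB was left out of the mean.

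ARG1, arginase 1, which splits arginine into ornithine and urea, followed the profile more closely than any other named gene. It ranged from 3.76 to 9.77, a 64.5-fold range. Its highest value was in the internal mammary artery of exercised pig 10_1 and its next in that of sedentary pig 15_1 (8.18). It thus ordered the extreme scrapes as ALAS2 did.

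EPB41 makes protein 4.1 of the red cell membrane skeleton, STRADB a pseudokinase partner of the kinase LKB1, and HBE1 the embryonic epsilon globin. EPB41 reached 10.12 and STRADB 10.02 in the internal mammary artery of pig 10_1, their highest values. The other EPB41 probe set had r = 0.763, and the other 3 of STRADB had 0.801, 0.715 and 0.122. HBE1, a beta-like globin, followed the profile although HBB did not, but over a narrow range of 4.83 to 6.17.

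The likeness of B2M came from 1 of its 9 probe sets. B2M is the light chain of class I histocompatibility molecules on nearly all nucleated cells. The probe set in question ranged from 8.70 to 14.69 (63.9-fold) and had a rho of 0.930 with the profile. The other 8 ranged at most 3.25-fold and had r between -0.161 and 0.0894, so its symbol and its pattern are at odds. OAZ1, named here after its values were seen, had the same split, with r = 0.779 and a 46.4-fold range for one probe set and r = 0.307 and a 1.37-fold range for the other. No sequence was at hand to check what these probe sets measure.

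Leukocyte and platelet markers were set beside ALAS2, as they would be in whole blood. In internal mammary arteries ALAS2 had r = 0.576 with the mean of 7 of 11 neutrophil markers (rho 0.639), 0.540 with 4 of 11 platelet markers (rho 0.600), 0.618 with 9 of 12 macrophage markers (rho 0.432) and 0.604 with 6 of 9 T and B cell markers (rho 0.586). The adjusted permutation p of r, over 58 relations with marker lists and RNA quality, was 0.248, 0.254, 0.229 and 0.229, so none passed. Unadjusted, the permutation p was 0.0256, 0.0378, 0.0141 and 0.0165. Without the 2 arrays farthest from the median of each marker mean, r was 0.407, 0.437, 0.519 and 0.683. In brachial arteries the same 4 relations gave r = -0.185, 0.103, 0.102 and -0.178. Fibroblast markers, which blood lacks, had r = 0.607 with ALAS2 in internal mammary arteries (3 of 5 measured, permutation p 0.0166, adjusted 0.229).

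The marker means of the groups overlapped. Relative to the mean of all arrays, the neutrophil mean ran from -0.448 to 0.698 in internal mammary arteries of exercised pigs and from -0.520 to 2.46 in those of sedentary pigs, the top value coming from pig 15_1. By limma none of the 7 neutrophil and 4 platelet markers passed for training in either artery; at an unadjusted p under 0.05 there were 1 neutrophil and 1 platelet marker in brachial arteries and 2 neutrophil markers in internal mammary arteries, against 15.4% and 12.3% of all probe sets.

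EPOR was higher in exercised than in sedentary pigs, and this difference passed in the internal mammary artery and over both arteries, but not in the brachial artery alone. In internal mammary arteries of exercised pigs EPOR had 9.10 in pig 12_2, 8.80 in pig 12_5, 8.78 in pig 10_5, 8.63 in pig 15_2, 8.51 in pig 10_1, 8.44 in pig 11_3, 8.05 in pig 15_4 and 7.86 in pig 14_3. In those of sedentary pigs it had 8.17 in pig 11_4, 7.90 in pig 17_1, 7.89 in pig 10_2, 7.82 in pig 12_3, 7.69 in pig 13_2, 7.14 in pig 15_1 and 6.95 in pig 11_1. The groups overlapped, but all 8 exercised values lay above the sedentary mean, and only those of pigs 14_3 and 15_4 lay below the highest sedentary value.

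The group means were 8.52 ± 0.407 in exercised and 7.65 ± 0.441 in sedentary pigs (SD, n = 8 and 7). The difference was 0.87 ± 0.21, or 1.83-fold (limma adjusted p = 0.0406). Of all probe sets 0.512% rose in this comparison. The call is close to the threshold: the adjusted p ran from 0.0213 to 0.113 when each pig was left out in turn, with changes of 0.76 to 0.97.

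In brachial arteries EPOR had 8.72 in pig 12_5, 8.29 in pig 10_5, 8.24 in pig 10_1, 8.23 in pig 15_2, 7.91 in pig 14_3, 7.87 in pig 11_3 and 7.13 in pig 15_4 of the exercised pigs. Sedentary pigs had 8.04 in pig 11_4, 7.80 in pig 17_1, 7.47 in pig 12_3, 7.42 in pigs 11_1 and 13_2, 7.02 in pig 15_1 and 6.91 in pig 10_2. Pig 15_4 alone among the exercised pigs fell below the sedentary mean. The difference was 0.64 ± 0.21 (1.56-fold, limma adjusted p = 0.115). With each pig left out in turn it ran from 0.53 (without pig 12_5) to 0.79 (without pig 15_4). It passed only without pig 15_4 (limma adjusted p = 0.0292), and the highest adjusted p was 0.253.

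Averaged over both arteries, the change was 0.76 ± 0.16, or 1.69-fold (limma adjusted p = 0.00761), with 14 of 15 exercised arrays above the sedentary mean. These 15 arrays came from 8 pigs and are not independent. In this comparison 2.88% of all probe sets rose. It was 0.85 among the pigs collected first and 0.67 among those collected last, and within either period alone it missed the threshold (limma adjusted p = 0.0606 and 0.353). Without each pig in turn it stayed between 0.68 and 0.87 and passed every time. On the means of the 14 pigs with both arteries, which left out pig 12_2, it was 0.70 and missed the threshold (limma adjusted p = 0.0683). The fit with pig as a random block took a shared pig correlation of 0.255 for all probe sets. EPOR itself had r = 0.607 between arteries within training groups, so the SE of 0.16 may be too small for this gene. The training changes of the arteries differed by -0.24 ± 0.26, brachial minus internal mammary (limma adjusted p = 0.9998); 0 probe sets passed in that comparison, and 1037 had an unadjusted p under 0.05.

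The array carries 3 more EPOR probe sets, placed by its maker as controls along the transcript at the 5′ end, the middle and the 3′ end. All 3 were higher in internal mammary arteries of exercised pigs: the 3′ probe set by 0.50 ± 0.12, the middle one by 0.35 ± 0.08 and the 5′ one by 0.29 ± 0.07 (limma adjusted p = 0.0498, 0.0320 and 0.0384). These calls were fragile, being lost without 11, 10 and 11 of 15 single pigs in the same order of probe sets. In brachial arteries the changes were 0.38 ± 0.13, 0.26 ± 0.08 and 0.09 ± 0.07, and none passed (adjusted p = 0.118, 0.0922 and 0.593). Averaged over arteries all 3 passed, with 0.44, 0.30 and 0.19 (limma adjusted p = 0.00885, 0.00485 and 0.0394). The call of the 5′ one was lost without 11 of 15 single pigs and in 8 of 16 other settings, such as the macrophage covariate (0.17, adjusted p = 0.157). All 4 probe sets read 1 gene in the same RNA and are not replicates.

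**Figure D4:**
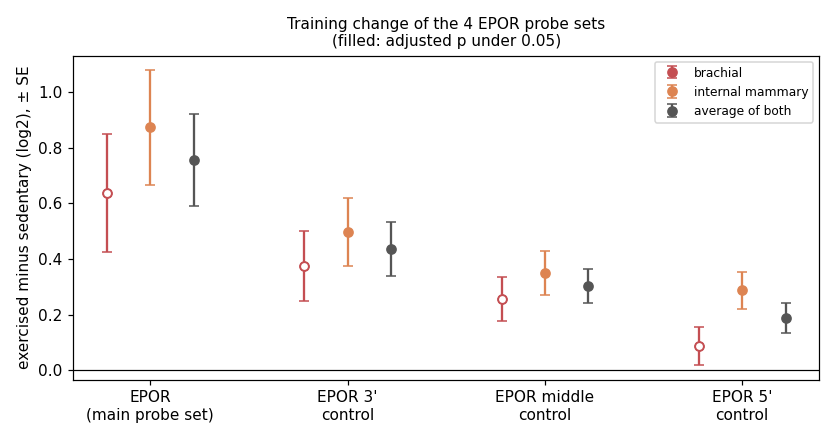
Change of the 4 EPOR probe sets (exercised minus sedentary, log2, ± SE of the limma fit) in brachial arteries, in internal mammary arteries and over their average, with filled points for an adjusted p under 0.05. All 12 points are above 0, the internal mammary changes are larger than the brachial ones, and the main probe set shows 0.87 against 0.29 for the 5′ probe set.

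The main EPOR probe set tracked the 3′ and middle ones in both arteries. In internal mammary arteries the main probe set had r = 0.984 with the 3′ one, 0.963 with the middle one and 0.757 with the 5′ one over 15 arrays (rho 0.961, 0.896 and 0.746). In 14 brachial arrays the same r values were 0.913, 0.760 and 0.128 (rho 0.912, 0.741 and 0.0110). The adjusted permutation p of r was at most 0.00391 for the first 5 and 0.787 for the last. After subtracting the means of the training groups, the r of the main with the 5′ probe set was 0.448 in internal mammary and -0.170 in brachial arteries. Whether the arteries differ in these relations was not tested. The value of the 3′ probe set minus that of the 5′ one can be compared only between groups. It averaged 0.484 in exercised and 0.204 in sedentary brachial arteries, and 0.280 in exercised and 0.0701 in sedentary internal mammary arteries, with SDs of 0.200 to 0.251 and no test.

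EPOR also held its rank between the arteries of a pig. Over 14 pigs r was 0.767 and rho 0.793 (permutation p of r 0.00146, adjusted 0.0036), and r was 0.789 without pigs 10_2 and 12_5. It was 0.607 after subtracting the means of the training groups, 0.692 among the pigs collected first and 0.849 among those collected last. Pig 12_5 had the highest brachial value and pig 15_4 the lowest of the exercised pigs, and pig 11_4 was the highest sedentary pig in both arteries.

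The order of the EPOR group means was internal mammary exercised (8.52), brachial exercised (8.06), internal mammary sedentary (7.65) and brachial sedentary (7.44). Within exercised pigs the brachial artery was lower by a difference of -0.44 ± 0.18 (limma adjusted p = 0.0469, where 17% of all probe sets were lower), and within sedentary pigs the difference of -0.21 ± 0.18 did not pass (0.399). Brachial exercised and internal mammary sedentary arteries overlapped and were not compared by a test.

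The probe sets of EPOR disagreed on the artery. The main one was lower in the brachial artery (-0.33 ± 0.13, limma adjusted p = 0.0321) and so was the 5′ one (-0.11 ± 0.04, 0.0249). Both calls were lost when the fit took account of the 28S/18S ratio (-0.22, limma adjusted p = 0.226, for the main and -0.11, 0.0691, for the 5′ one) and when the arrays were centred again (-0.28, 0.0804, for the main and -0.061, 0.263, for the 5′ one). Over all alternatives, these included, the main one lost its call in 9 of 18 and the 5′ one in 6 of 16. The middle one was higher (0.17 ± 0.05, 0.00502), and the 3′ one did not pass (0.06 ± 0.08, 0.512). With the 4 averaged the difference was -0.05 (adjusted p = 0.512). No direction between arteries is therefore given for the gene.

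EPOR did not follow the red cell transcripts. Its r with HBM, AHSP and ALAS2 lay between -0.0673 and 0.0662 in brachial and between 0.00929 and 0.0813 in internal mammary arteries (rho -0.121 to 0.0989 and -0.0107 to 0.0714), with adjusted permutation p of 0.873 to 0.974. The internal mammary array with the most ALAS2, that of pig 10_1, had a middling EPOR value of 8.51. With the mean of HBB, HBM, AHSP and ALAS2 as a covariate, the EPOR change was 0.89 ± 0.21 in internal mammary arteries (limma adjusted p = 0.0388) and 0.76 ± 0.17 over both arteries (0.00801). Without HBB in that mean the values were 0.89 and 0.76 again (0.0399 and 0.00806).

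Other measures moved with training in the internal mammary artery beside EPOR. The 28S/18S ratio of the RNA was 1.33 ± 0.0841 in exercised and 1.19 ± 0.0763 in sedentary pigs (SD, n = 8 and 7), and EPOR had r = 0.417 with it (rho 0.555, adjusted permutation p 0.671 and 0.285), or -0.199 within training groups. With the ratio as a covariate the EPOR change was 0.99 (limma adjusted p = 0.0221). Among T and B cell markers 1 of the 6 measured rose, against 0.512% of all probe sets: CD79B, a part of the B cell receptor (1.46 ± 0.31, limma adjusted p = 0.0245). Their mean ran from -0.143 to 0.522 in exercised and from -0.462 to 0.107 in sedentary pigs, and its r with EPOR was 0.687 (rho 0.621, adjusted permutation p of r 0.229). Their part in the EPOR result was not tested.

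Smooth muscle markers ran the other way, with r = -0.597 to EPOR in internal mammary arteries and -0.416 in brachial arteries (adjusted permutation p = 0.229 and 0.671). By limma none of the 8 measured passed for training, none at an unadjusted p under 0.05 either, and all 8 had negative changes in each artery. With their mean as a covariate the EPOR change was 0.78 in internal mammary arteries (limma adjusted p = 0.0309). In brachial arteries 3 of 9 macrophage markers fell with training, where 1.63% of all probe sets passed in either direction. With the macrophage list as a covariate the brachial EPOR change was 0.71 (adjusted p = 0.347). Endothelial markers had r = 0.565 with EPOR in brachial arteries, 0.681 within training groups and 0.293 without pigs 15_4 and 10_2. In internal mammary arteries their r with EPOR was -0.150, or 0.272 within training groups. The adjusted permutation p of r was 0.254 in brachial and 0.822 in internal mammary arteries. The part of endothelial markers in the EPOR result was not tested.

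Of 32 genes listed for erythropoietin receptor signalling, 17 were measured, and by limma none rose or fell with training in either artery (5 in brachial and 4 in internal mammary arteries had an unadjusted p under 0.05, against 15.4% and 12.3% of all probe sets). The median change was -0.07 in brachial and 0.01 in internal mammary arteries. JAK2, the kinase bound to the receptor, changed by 0.04 ± 0.08 in brachial and 0.08 ± 0.08 in internal mammary arteries (limma adjusted p = 0.878 and 0.755). EPO, the hormone, had a mean level of 4.78 and differed by 0.11 ± 0.09 in brachial and 0.05 ± 0.09 in internal mammary arteries (0.625 and 0.875). In internal mammary arteries the smallest p belonged to PTPN6, a phosphatase that shuts the receptor off (0.42 ± 0.13, limma adjusted p = 0.143), the transcription factors STAT5A (-0.32 ± 0.12, 0.218) and STAT5B (-0.25 ± 0.09, 0.219), which the receptor activates, and HIF1A, the hypoxia factor (-0.25 ± 0.11, 0.353). Between arteries 3 of the 17 were higher and 6 lower in the brachial artery, against 31.8% and 22.5% of all probe sets. Among the lower ones was EPAS1, the hypoxia factor that drives EPO transcription (-0.73 ± 0.07, limma adjusted p = 8.13e-10).

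Genes that take up and break down heme and iron made up another list, of which 12 of 15 were measured. By limma none passed for training in either artery alone (2 in each had an unadjusted p under 0.05, against 15.4% of all probe sets in brachial and 12.3% in internal mammary arteries), with medians of -0.02 in brachial and -0.05 in internal mammary arteries. Over both arteries 1 of the 12 passed, where 4.69% of all probe sets passed in either direction. This was SLC11A2, an iron importer, which fell by 0.22 on the log2 scale (limma adjusted p = 0.0313). HMOX1, heme oxygenase, changed by -0.15 ± 0.06 over both arteries and did not pass (0.182). Between arteries 6 of the 12 were higher and 1 lower in the brachial artery, against 31.8% and 22.5% of all probe sets. The lower one was HMOX1 (-0.18 ± 0.05, limma adjusted p = 0.00285), and HPX, the plasma scavenger of heme, was higher (0.27 ± 0.05, 2.14e-05).

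The genes most like EPOR over the 29 arrays, after subtracting group means, were IL16 (r = 0.833), NUP37 (0.820), TOR1AIP2 (0.817), KCNN4 (0.815), MGAT4B (0.815) and MIF (0.805). In all, 101 other probe sets reached r = 0.7, against 17 for the red cell profile. IL16 is a cytokine that attracts CD4+ cells, and KCNN4 a calcium-activated potassium channel found in endothelium and red cells. MGAT4B branches sugar chains on glycoproteins, MIF is an inflammatory cytokine, NUP37 belongs to the nuclear pore and TOR1AIP2 binds torsins.

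Over both arteries, where 2.88% of all probe sets rose, IL16 (0.69 ± 0.16, limma adjusted p = 0.0118), MGAT4B (0.40 ± 0.09, 0.00878) and NUP37 (0.26 ± 0.07, 0.0353) rose with training. KCNN4 (0.31 ± 0.16, 0.30), TOR1AIP2 (0.10 ± 0.06, 0.415) and MIF (-0.00 ± 0.07, 0.989) did not pass. These genes were picked for following EPOR in the same arrays, so their changes are not independent of the EPOR change. IL16 had its highest value in the internal mammary artery of exercised pig 12_2 (9.89), as EPOR did.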

How the data were processed

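Porcine single-colour oligonucleotide arrays measured RNA of 29 luminal scrapes. The authors deposited log2 probe set values; the submitters' processing notes name affy without a version, and background correction and normalization are not given in the sources used here. Genes were named from the platform annotation: 10099 probe sets had 1 symbol, 198 several and 13826 none. Of 124 array control probe sets, the 30 with 1 symbol were kept, since 3 of them are EPOR, leaving 24029 tested. Titles and tags gave the groups; for exercised internal mammary samples the source name, which reads sedentary, was not followed. The pig that gave 1 artery gave the internal mammary one, although the design text says brachial.

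limma 3.58.1 (R 4.3.3) fitted 4 group means with pig as a random block, since the labels give the pig of each artery (consensus correlation 0.255). Moderated p-values were adjusted by Benjamini-Hochberg over all probe sets, with a threshold of 0.05, and the scripts were tested on simulated data. Relations used two-sided permutation tests with 100000 resamples in numpy 2.4.6, whose smallest p is 1e-05, with ranks from scipy 1.17.1. Within a collection period all orders of the pigs were used instead. Pigs were ordered by collection day into the 8 first and the 7 last. Every member probe set is named, with up to 4 genes of a list by smallest p and the 6 genes most like the red cell mean and most like EPOR. Genes named outside this rule are JAK2, EPO, HMOX1 for training, CD79B and the cell markers PECAM1, CDH5 and ACTA2, besides OAZ1. The members and lists were chosen with earlier results of these data known. A gene in a list is represented by its probe set with the highest mean. Alternatives were the handling of the pig block, filters, renormalization, priors, array weights, covariates, collection periods and each pig left out. Leaving out all controls, the 3-gene mean as a covariate and the 3-gene likeness were added after seeing the data. Figures used matplotlib 3.10.9, and the packages data.table (version 1.17.8), jsonlite 2.0.0, pandas 2.3.3 and numpy 2.4.6 read the data under Python 3.11.15.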

Additional observations from a re-analysis of the deposited data

How the results depend on the processing

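The EPOR change in internal mammary arteries kept its sign under all 18 alternatives and all 15 omissions of a pig, but its limma adjusted p was above 0.05 in 5 of the 18: arrays centred again (0.87, 0.0594), no replicate block (0.87, 0.0604), a fixed replicate block (0.87, 0.105), and the pigs collected first (1.00, 0.25) or last (0.76, 0.666) alone. Without each pig in turn it lay between 0.76 and 0.97 and missed the threshold without any of pigs 10_1, 10_5, 11_1, 11_3, 12_2, 12_3, 12_5, 13_2, 15_1, 15_2 and 17_1. The average over arteries missed it with a fixed replicate block (0.70, 0.0683) and in the first (0.85) or last (0.67) pigs alone, and lay between 0.68 and 0.87 without each pig. The internal mammary call was also lost in 9 of 16 alternatives for the 3′ EPOR probe set, in 5 for the middle and in 5 for the 5′ one. The artery difference of the main EPOR probe set lost its call in 9 of 18 alternatives and without pigs 10_2, 11_3, 12_3 or 13_2, and that of the 5′ one in 6 of 16 and without pigs 10_1, 12_3 or 13_2. The brachial EPOR change, without each pig, lay between 0.53 and 0.79 and passed only without pig 15_4. The artery difference of HBB passed in every setting run (-0.49 to -0.25, and -0.39 to -0.33 without each pig). Changes that had not passed reversed as follows. In the last collected pigs alone, internal mammary values were -0.75 for ALAS2, -0.48 for AHSP, -0.32 for HBM and 0.13 for HBB, brachial ones 0.18 for ALAS2 and 0.15 for HBB, and the difference between arteries in the training change of the 3′ EPOR probe set was 0.090 (-0.12 as reported). Brachial ALAS2 was 1.22 with the macrophage and 0.092 with the smooth muscle covariate. Brachial AHSP was -0.0098 with days of collection, and brachial HBM was -0.017 with days, -0.012 with the 28S/18S ratio and -0.0061 with no or a fixed replicate block. Without each pig, brachial changes spanned -0.22 to 0.28 for AHSP, -0.33 to 0.20 for ALAS2, -0.15 to 0.14 for HBM and -0.12 to 0.032 for HBB, and internal mammary ones 0.04 to 1.09 for ALAS2 and -0.034 to 0.60 for HBM. The cause was not tested. Training calls over all probe sets in internal mammary arteries, 161 as reported, became 97 with centring, 13 with a fixed replicate block, 340 with array weights, 276 with the 28S/18S and 244 with the smooth muscle covariate, 5 in the first and 0 in the last pigs alone, and 35 (without pig 10_5) to 294 (without pig 10_2) on leaving out 1 pig. In brachial arteries 392 became 122 with a fixed replicate block, 779 with the smooth muscle and 8 with the macrophage covariate, 11 in the first and 0 in the last pigs, and 149 (without pig 12_5) to 587 (without pig 15_4). Over both arteries 1127 became 2009 without and 368 with a fixed replicate block, 420 with the macrophage covariate, 252 in the first and 28 in the last pigs, and 707 (without pig 10_5) to 1232 (without pig 15_4). No scanner files were used here, so signal over background is unknown, and a probe set's dimness could not be judged.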
